A study of Mus musculus with 24 samples.

Results

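Chromatin accessibility of DN cells was compared between B16-F10 melanoma tumors and lymph nodes. DN cells are sorted CD8 T cells without LAG3 on the surface and without the tdTomato label, described as LAG3- tdTomato- CD8+. The comparison takes the 8 libraries of the series named TUMOR_DN (4), DLN_DN (2, tumor-draining node) and NDLN_DN (2, non-draining node), out of 24 in all, and pools both kinds of node. All groups came from C57BL/6 mice that carried the alleles Lag3-iCreERT2 and Rosa26-LSL-tdTomato, bore B16-F10 tumors, received 2 mg of tamoxifen on days 8 to 10 after implantation and were harvested on day 19. Every label gives Batch1, and no label says that replicates came from separate animals. The reporter is driven by the Lag3 locus and is switched on only while tamoxifen is present, so a DN cell is one that did not express enough Lag3 then to recombine, and it may have expressed Lag3 at another time.

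Naive and memory CD8 T cells recirculate through lymph nodes with the help of CCR7 and the egress receptor S1PR1, and keep a gene program run by TCF1, LEF1, BACH2 and FOXP1. Activation by antigen replaces it with an effector program of granzymes, perforin and interferon gamma, and long exposure to antigen in a tumor adds inhibitory receptors and the factor TOX. The Omni-ATAC assay cuts open chromatin with the transposase Tn5, so a peak marks DNA that is open at a promoter or at a distal element such as an enhancer. In bulk samples a change in the share of cells with an open site and a change in openness within each cell cannot be told apart.

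The 8 peak lists were of very unequal length. Tumor replicates 1, 2 and 4 had 32717, 42451 and 19771 peaks, DLN replicate 1 had 37544 and NDLN replicate 1 had 33631, and these 5 entered the comparison. Tumor replicate 3 (4603 peaks), NDLN replicate 2 (6613) and DLN replicate 2 (301) were set aside and used as a check. Within each library the strongest 14000 peaks were ordered by the authors' -log10 p, and each region of 501 bp received a rank value, from 1 for the strongest kept peak to near 0 for the weakest, with 0 where no peak was kept. A rank value is a place in the order of a library, not an amount of open chromatin, and a rank value of 0 often hides a weaker peak of the deposited list. Kept peaks of tumor replicate 4 were narrower (median 272 bp) than those of tumor replicates 1 and 2 (586 and 575 bp) and of the nodes (470 and 460 bp), and the part of peak width in the results was not tested.

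The DN libraries of a tissue resembled each other. Over the strongest 19000 peaks of the 5 long lists, the Jaccard index (regions held by both libraries of a pair over regions held by either) had a mean of 0.808 within a tissue and 0.635 between tumor and node (one-sided exact permutation p = 0.1, the smallest that 10 arrangements allow). With the strongest 4000 peaks, 7 libraries could be compared, tumor replicate 3 and NDLN replicate 2 included. The difference between within and between tissues was then 0.197 (one-sided exact permutation p = 0.02857 over 35 arrangements). The tumor pairs lay between 0.601 and 0.785, the node pairs between 0.641 and 0.787, and the pairs across tissues between 0.414 and 0.546. Within-tissue and across-tissue pairs did not overlap.

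Accessibility in DN cells differed between tumor and node at many sites, in both directions. Of 22997 regions, 1652 (7.18%) ranked higher in tumor DN and 2576 (11.2%) ranked lower (limma, Benjamini-Hochberg adjusted p under 0.05; 6905 at an unadjusted p under 0.05). By order alone, all tumor values lay above both node values at 21.4% of regions and below both at 22.2%. Of the higher regions 499 had no kept peak in either node library, and of the lower regions 1501 had none in the 3 tumor libraries. Most of these sites were weaker rather than shut: 485 of the 499 had a weaker peak in a deposited node list, and 1350 of the 1501 had one in a deposited tumor list. The balance of the calls moved with the scaling. Ranking by the authors' fold ratio gave 815 higher and 2042 lower, ranking all peaks of each list gave 247 and 2933, and peaks that cover 50% of a region gave 537 and 1974. A fit of the DN libraries alone, which also kept the strongest 19000 peaks in place of 14000 here and wherever it is given below, gave 2860 and 2984. Its 2 changes cannot be told apart. A peak in at least 4 libraries gave 1661 and 1625, so the excess of lower calls ended there. With all peaks ranked, 9 of the 33 higher and 13 of the 54 lower regions named here as called kept their call. The higher calls also leaned on single node libraries, with 954 without DLN replicate 1 and 845 without NDLN replicate 1. Leaving out each DN library in turn kept 559 of the higher and 1689 of the lower regions called every time.

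The higher and the lower regions lay in different places of the genome. Of all regions 39.4% lay within 1 kb of the end of a gene, but 76.1% of the higher regions and 8.19% of the lower regions did. By the start sites in the promoter table, 83.6% of the higher and 9.04% of the lower regions with a start site in reach lay within 1 kb of one. The libraries themselves showed the same lean. Among the strongest 19000 peaks, 44.3%, 44.3% and 47.8% of the summits lay near a gene end in the 3 tumor libraries and 38.7% and 38.4% in the nodes (45.4% ± 2.04, SD, n = 3, against 38.5% ± 0.238, n = 2; two-sided exact permutation p = 0.1, the smallest that 10 arrangements allow). Among the strongest 4000 peaks the shares were 79.2% ± 2.66 in 4 tumor libraries and 61.5% ± 1.98 in 3 node libraries (two-sided exact permutation p = 0.02857 over 35 arrangements). No tumor library overlapped a node library at any of these depths.

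**Figure D1:**
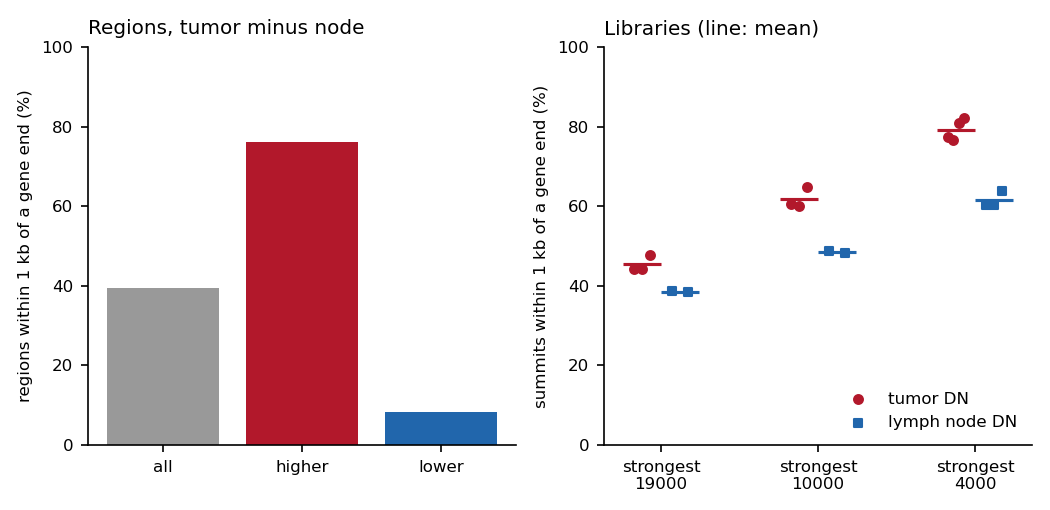
Left, the percentage of all regions, of regions higher in tumor DN and of regions lower in tumor DN that lie within 1 kb of a gene end. Right, the percentage of peak summits within 1 kb of a gene end in each DN library (points; horizontal lines are means) among its strongest 19000, 10000 and 4000 peaks; the tumor libraries lie above the node libraries at each depth.

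In a rank order, promoter peaks that stand higher leave lower places to distal peaks, so rank values of both classes carry this shift. Peaks were therefore also ranked within their own class, an alternative chosen after the results were seen. Ranked together, 395 of 13939 distal regions (2.83%) were higher and 2365 (17%) lower, and of 9058 regions near gene ends 1257 (13.9%) were higher and 211 (2.33%) lower. Ranked only against other distal peaks, 819 of 13590 distal regions (6.03%) were higher and 1499 (11%) lower. Ranked only against other gene-end peaks, 284 of 8009 gene-end regions (3.55%) were higher and 461 (5.76%) lower. The lean of gene-end regions toward tumor thus turned with the scaling, while the distal regions kept more lower than higher calls. Values of the within-class ranking are given below beside the named calls that they end or start.

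With all peaks ranked together, the share of promoters called higher in tumor was larger among those with many CG pairs. The share called lower was larger among those with few. Shares of CG pairs and letters were not computed for the ranking within the gene-end class, where 284 regions were higher and 461 lower. Of the 32619 promoter windows in the table (300 bases, 250 before and 50 after the start site), 7069 had their start site in a tested region, 1094 in a higher and 137 in a lower region. The median number of CG pairs was 7 in all windows, 22 in those of tested regions, 25 in the higher and 8 in the lower ones. Among promoters of tested regions with 0 to 18 CG pairs 9.01% were higher and 4.51% lower, and among those with 28 to 65 pairs 20.5% were higher and 0.562% lower. Letters that known factors bind were searched on both strands. The SP and KLF letters GGGCGG were in 77% of the higher, 37.2% of the lower and 69.5% of the tested windows, and in 35.9% of all windows. The ETS letters CCGGAAG were in 27.9%, 6.57%, 21.5% and 8.92%, in the same order. The RUNX letters TGTGGT were in 12.1%, 19.7%, 12.9% and 16.6%, the TCF and LEF letters CTTTGA in 10.3%, 20.4%, 11.7% and 16%, and the AP-1 letters TGANTCA in 3.75%, 7.3%, 4.61% and 7.85%. The higher windows thus lay close to the tested windows, and the lower ones closer to all windows. A match describes the letters of a window and shows no binding.

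4 promoter windows are printed as examples, read from RefSeq on GRCm38.p6, 5′ to 3′ along the gene, with CG pairs in capitals. Those of Sde2 and Gpr183 follow this contrast. The Cdk4 window lies at a higher region, but its 22 CG pairs equal the median of the tested windows. The Gzmb window does not follow the contrast, since it has few CG pairs and its difference was toward tumor and not called. Sde2 (chr1:180850901-180851200, plus strand, 31 CG pairs) had the smallest p of all higher regions, and Cdk4 (chr10:127063285-127063584, plus strand, 22 CG pairs) is a higher promoter of the cell cycle. Gpr183 (chr14:121965144-121965443, minus strand, 4 CG pairs) is a lower promoter of a migration receptor, and Gzmb (chr14:56262285-56262584, minus strand, 2 CG pairs) is the granzyme promoter whose values are given with the effector genes.
Sde2: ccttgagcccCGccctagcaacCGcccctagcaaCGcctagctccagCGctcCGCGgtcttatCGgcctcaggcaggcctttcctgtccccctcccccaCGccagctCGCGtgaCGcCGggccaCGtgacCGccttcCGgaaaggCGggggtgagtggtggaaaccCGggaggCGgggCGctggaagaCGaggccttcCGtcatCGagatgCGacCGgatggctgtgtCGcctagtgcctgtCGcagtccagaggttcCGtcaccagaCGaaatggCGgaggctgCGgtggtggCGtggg
Cdk4: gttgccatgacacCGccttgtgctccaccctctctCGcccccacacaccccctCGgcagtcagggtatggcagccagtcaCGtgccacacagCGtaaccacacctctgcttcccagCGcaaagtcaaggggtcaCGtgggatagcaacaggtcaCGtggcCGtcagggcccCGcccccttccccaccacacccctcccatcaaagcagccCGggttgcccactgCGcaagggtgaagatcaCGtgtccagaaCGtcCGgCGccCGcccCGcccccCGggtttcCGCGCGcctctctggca
Gpr183: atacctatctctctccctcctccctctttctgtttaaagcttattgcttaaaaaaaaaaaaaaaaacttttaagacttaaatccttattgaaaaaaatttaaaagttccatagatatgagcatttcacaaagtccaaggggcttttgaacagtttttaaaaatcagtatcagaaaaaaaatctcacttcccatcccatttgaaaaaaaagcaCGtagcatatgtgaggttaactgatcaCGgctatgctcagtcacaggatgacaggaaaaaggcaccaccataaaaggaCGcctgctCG
Gzmb: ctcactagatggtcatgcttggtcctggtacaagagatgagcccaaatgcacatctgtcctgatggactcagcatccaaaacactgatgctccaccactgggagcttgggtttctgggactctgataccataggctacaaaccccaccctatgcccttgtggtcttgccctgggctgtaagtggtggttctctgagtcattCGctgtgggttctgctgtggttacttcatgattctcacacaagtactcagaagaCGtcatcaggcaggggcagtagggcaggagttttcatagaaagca
The Sde2 window holds the ETS and the SP and KLF letters, the Cdk4 window those of RUNX, of TCF and LEF and of SP and KLF, and the Gzmb window those of AP-1 and RUNX. The Gpr183 window holds none of these 5 sets of letters.

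Some of the sites near genes of the naive and memory program ranked lower in tumor DN than in node DN. Of 114 regions near 18 of the 20 genes of this list, 29 (25.4%) ranked lower and 0 higher, against 11.2% lower and 7.18% higher of all regions, and the median difference was -0.0551 against 0. The 29 regions lay near 14 genes. In a fit of the DN libraries alone 6 regions of the list were higher, and without each DN library in turn 22 to 30 were lower and 0 or 1 higher. Ranked only among distal peaks, 16 of 99 distal regions of the list were lower and 3 higher, against 11% and 6.03% of all distal regions.

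Bach2 encodes a repressor that holds T cells in a resting, memory-like state, and 8 of its 22 regions ranked lower in tumor and 0 higher. The region with the smallest p lies inside the gene (chr4:32423610-32424110). It had no kept peak in tumor replicates 1, 2 and 4 and rank values of 0.528 in DLN and 0.672 in NDLN (difference -0.6, SE 0.0448, adjusted p = 2.53e-06). Of the lists in the fit, only those of node DN kept a peak there. The site thus met the filter of 2 libraries through the group where it is high, and this p gives no independent support. The deposited lists show what lies under these ranks. The authors' fold ratio at this site was 6.41 and 8.33 in tumor replicates 1 and 2, with no peak in tumor replicates 3 and 4, and 15.4 and 15.5 in DLN replicate 1 and NDLN replicate 1. The short list of NDLN replicate 2 also held a peak here, at a fold ratio of 4.57. Every long node list thus had a stronger peak than any tumor list.

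Lef1, the gene of a partner of TCF1, had 1 of 12 regions lower, inside the gene (chr3:131190628-131191128). No tumor library kept a peak there, and the nodes were at 0.448 and 0.534 (difference -0.491, SE 0.0377, adjusted p = 2.89e-06). Il7r, whose receptor carries the survival signal of naive and memory cells, had a lower region 3.6 kb from the gene, at 0.0471, 0 and 0 in tumor and 0.523 and 0.477 in node (adjusted p = 8.11e-05). A region inside Bcl2, the survival gene downstream of that receptor, had no kept tumor peak and stood at 0.391 and 0.417 in node (adjusted p = 1.16e-05). These sites were chosen for the smallest p of their genes, so that tumor and node libraries did not overlap there is no further support. All tumor values lay below both node values at 22.2% of all regions.

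Foxp1, a factor that keeps naive cells quiescent, had 4 of 17 regions lower, the strongest call inside the gene (0.0334, 0 and 0 against 0.363 and 0.416; adjusted p = 5.49e-05). Satb1, which organizes chromatin in T cells, had 4 of 6 regions lower, and its region with the smallest p stood at 0 in all 3 tumor libraries and 0.653 and 0.452 in node (adjusted p = 0.0116; 0.141 without DLN replicate 1). Tcf7, the gene of TCF1, had 1 of 7 regions lower, with rank values of 0.0321, 0.027 and 0 in tumor and 0.126 and 0.33 in node (adjusted p = 0.0289). That call ended without NDLN replicate 1 (0.204) and without tumor replicate 1, 2 or 4 (0.0579, 0.0628 and 0.0788), and when distal peaks were ranked among themselves (0.406). The region of Id3, a memory precursor factor, with the smallest p did not pass (adjusted p = 0.705).

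**Figure D2:**
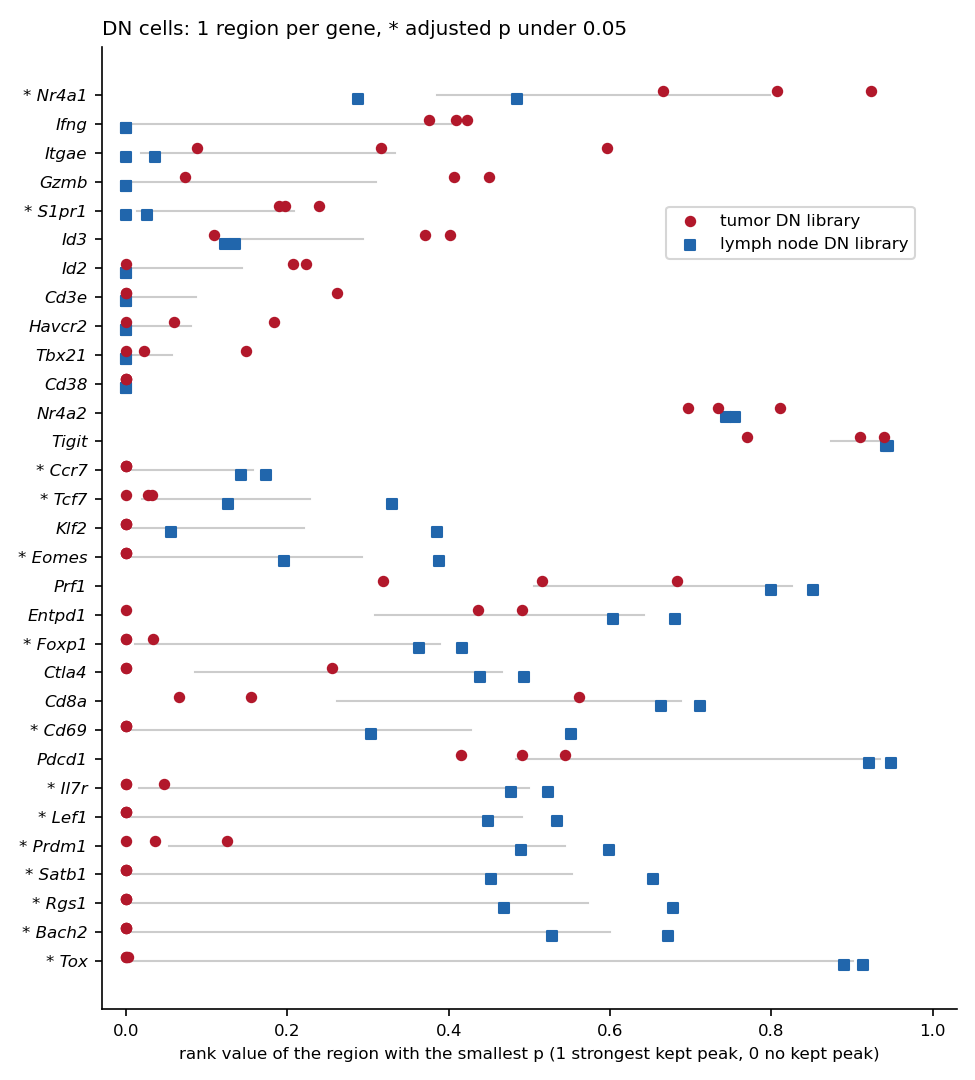
Rank values in the 3 tumor (circles) and 2 lymph node (squares) DN libraries at 1 region per gene, the one with the smallest p, ordered by the tumor minus node difference; grey lines join the group means and asterisks mark adjusted p under 0.05. Regions of Bach2, Lef1, Tox, Rgs1 and Satb1 have node values above 0.4 and tumor values at or near 0, and Nr4a1 lies highest on the tumor side.

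Some regions near receptors for lymph node traffic were lower as well, and S1pr1 had regions in both directions. Of 40 regions near the 10 genes of homing and egress, 10 (25%) ranked lower and 2 (5%) higher, with a median difference of -0.15. Of all regions 11.2% were lower and 7.18% higher. Without DLN replicate 1 the lower count was 5. Among distal peaks alone 4 of 31 distal regions were lower and 3 higher, against 11% and 6.03% of all distal regions. S1pr1, the receptor through which lymphocytes leave tissue along a lipid gradient, had 4 of 12 regions lower and 2 higher. A lower region 78.4 kb from the gene (chr3:115793250-115793750) stood at 0.0702, 0.221 and 0 in tumor and 0.565 and 0.632 in node (difference -0.502, SE 0.0954, adjusted p = 0.00251). A higher region 67.6 kb from the gene (chr3:115642607-115643107) stood at 0.19, 0.239 and 0.197 in tumor and 0 and 0.0263 in node (difference 0.196, SE 0.031, adjusted p = 0.000673). Both calls ended in the fit of the DN libraries alone with 19000 peaks (0.113 for the higher and 0.0695 for the lower region), and the higher one ended when peaks had to cover 50% of a region (0.635).

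The Gpr183 promoter shown above belongs to a receptor that guides cells along oxysterols in lymphoid tissue. It stood at 0, 0 and 0.134 in tumor and 0.613 and 0.597 in node (adjusted p = 0.0034), and it stayed lower among gene-end peaks alone (-0.479, adjusted p = 0.000272). Ccr7, the receptor for entry into lymph nodes, had 2 of 4 regions lower. The region with the smallest p was at 0 in the 3 tumor libraries and at 0.142 and 0.173 in node (adjusted p = 0.000345), so both node peaks were weak ones. A region 23.3 kb from Klf2, the factor that drives S1pr1, stood at 0 in tumor and 0.385 and 0.0561 in node and did not pass (adjusted p = 0.0612; 0.000869 without NDLN replicate 1).

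**Figure D3:**
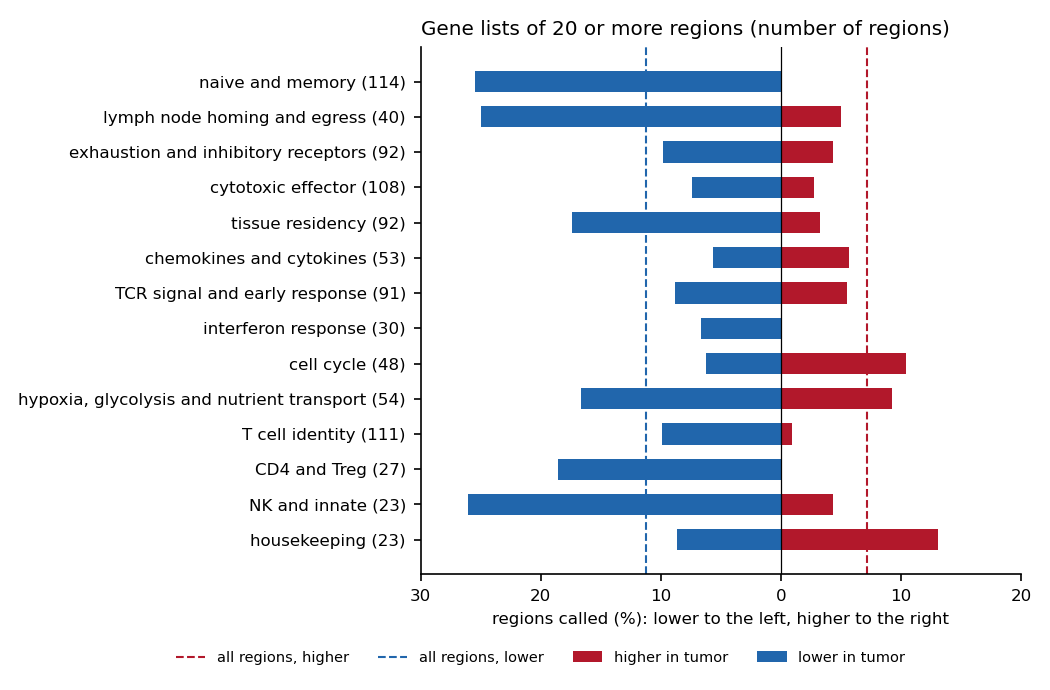
Percentage of the regions near the genes of each list that ranked lower (bars to the left) or higher (bars to the right) in tumor DN than in node DN, for lists with 20 or more regions (number in brackets); dashed lines are the percentages over all regions, 11.2 lower and 7.18 higher. The naive and memory, homing and egress, and NK and innate lists reach furthest to the left.

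Genes of exhaustion and of the T cell receptor response did not move as a block. Of 92 regions of the exhaustion list 9 (9.78%) ranked lower and 4 (4.35%) higher. Of 91 regions of the T cell receptor signal and early response list 8 (8.79%) were lower and 5 (5.49%) higher. The shares over all regions were 11.2% lower and 7.18% higher. The median difference was 0 in both lists, as over all regions. Without NDLN replicate 1 the exhaustion counts were 5 lower and 1 higher, and without DLN replicate 1 they were 6 and 2. The higher count of the T cell receptor list was 3 without DLN replicate 1, NDLN replicate 1 or tumor replicate 4. The lower regions of the exhaustion list lay near Tox (5), Nr4a3 (2), Cd160 and Prdm1, and the higher ones near Nr4a1 (2) and Il10 (2).

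Tox encodes the factor that imposes and maintains exhaustion, and 5 of its 12 regions ranked lower in tumor DN. The region with the smallest p (chr4:6970423-6970923, inside the gene) stood at 0, 0 and 0.00171 in tumor and 0.89 and 0.913 in node (difference -0.901, SE 0.0971, adjusted p = 3.47e-05). In the deposited lists the fold ratio was 7.21, 8.28 and 5.35 in tumor replicates 1, 2 and 4 and 20.2 and 21.7 in the long node lists. The site was thus a strong peak in node and at or below the weakest kept peaks in tumor. Prdm1, the gene of BLIMP1, a repressor of memory genes, had 1 of 8 regions lower (0.0361, 0 and 0.125 against 0.599 and 0.49; adjusted p = 0.0208). That call ended without DLN replicate 1 (0.144), NDLN replicate 1 (0.0691) or tumor replicate 1 (0.0553) or 2 (0.0637), and among distal peaks alone (0.121). A weak region of Cd160, an inhibitory receptor gene, was lower (-0.0949, adjusted p = 0.00579) but not among distal peaks alone (-0.00288).

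Nr4a1 is switched on within minutes of T cell receptor engagement, and 2 of its 4 regions ranked higher in tumor. The one with the smallest p, 7.44 kb from the gene (chr15:101246211-101246711), stood at 0.807, 0.665 and 0.923 in tumor and 0.484 and 0.287 in node (difference 0.413, SE 0.0724, adjusted p = 0.00142). The deposited fold ratios there lay closer together, at 14.9, 13.6 and 14.9 in the long tumor lists and 13.3 and 10.2 in the node lists, and the short tumor list also held a peak. With the strongest 4000 peaks and the short lists included, the call ended (0.073). Regions of the early response genes Fos (0.591, 0.685 and 0.69 against 0.149 and 0.242; adjusted p = 0.00536) and Tnfrsf9, the gene of the costimulatory receptor 4-1BB, were higher too. Tnfrsf9 stood at 0.759, 0.718 and 0.534 in tumor and 0 and 0.00386 in node (adjusted p = 0.00635; 0.0546 without DLN replicate 1 and 0.0548 without NDLN replicate 1). In the same list regions near Jun (0.274, 0.0906 and 0 against 0.831 and 0.78; adjusted p = 0.00123), Nfkb1 (adjusted p = 1.16e-05) and Nr4a3 (adjusted p = 0.00219) ranked lower.

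A region 25.9 kb from Il10, the gene of an immunoregulatory cytokine, stood at 0.736, 0.683 and 0.369 in tumor DN and at 0 in both nodes (chr1:130993664-130994164, adjusted p = 0.00734). The call ended without DLN replicate 1 (0.063) or NDLN replicate 1 (0.0648). Among distal peaks alone it was larger (0.774, adjusted p = 9.48e-05). Regions of further inhibitory receptor genes gave no call. The region near Pdcd1, the gene of PD-1, was strong everywhere and stronger in node, at 0.544, 0.415 and 0.491 against 0.948 and 0.921 (adjusted p = 0.0548; 0.00491 with the strongest 10000 peaks and 0.0118 in the DN libraries alone). Ctla4 (adjusted p = 0.125), Tigit (0.301), Entpd1 (0.363) and Havcr2 (0.913) did not pass at the region with the smallest p. The region near Cd38, an ectoenzyme gene of dysfunctional cells, had no kept peak in any of the 5 libraries.

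Effector genes had calls in both directions, each at a smaller share than over all regions. Of 108 regions of the cytotoxic effector list, 8 (7.41%) ranked lower and 3 (2.78%) higher, against 11.2% and 7.18% of all regions. The median difference was 0. Ranked only among distal peaks, 9 of 86 distal regions were higher and 4 lower, against 6.03% and 11% of all distal regions. Without NDLN replicate 1 or tumor replicate 2 the higher count was 0, without DLN replicate 1 or tumor replicate 1 it was 1, and without tumor replicate 2 the lower count was 5.

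The Gzmb promoter, upstream of the gene of granzyme B, had a kept peak in each long tumor list and in neither long node list. Its rank values were 0.407, 0.45 and 0.0724 against 0 and 0, and the difference did not pass the test (0.31, SE 0.121, adjusted p = 0.101). It passed without tumor replicate 4 (0.0179), whose value was the low one, and in the DN libraries alone (0.029). Ranked among gene-end peaks alone the difference was 0.0871 (adjusted p = 0.515). The deposited fold ratio was 12.8, 13.7 and 5.58 in tumor replicates 1, 2 and 4 and 5.99 and 5.54 in node, so tumor replicate 4 and the nodes were alike on that scale. Ifng, the gene of interferon gamma, had 0 of 12 regions called. Its region 5.37 kb upstream stood at 0.422, 0.409 and 0.376 in tumor and at 0 in both nodes (adjusted p = 0.0879), and it passed among distal peaks alone (0.593, adjusted p = 0.0181). The promoter of Prf1, the perforin gene, had lower values in tumor, at 0.683, 0.318 and 0.516 against 0.8 and 0.851 (adjusted p = 0.0711), and it passed among gene-end peaks alone (-0.524, adjusted p = 0.0378) and without tumor replicate 1 (0.0307).

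The higher effector regions lay near Zeb2, a factor of terminal effector cells (0.555, 0.522 and 0.111 against 0 and 0; adjusted p = 0.0181), Il2rb, a subunit of the receptors for interleukins 2 and 15 (0.484, 0.536 and 0.39 against 0 and 0; adjusted p = 0.0273), and Klrg1, a surface marker of short-lived effectors (0.196, 0.292 and 0.302 against 0 and 0; adjusted p = 0.0347). Each of these calls ended without DLN replicate 1 (0.11, 0.0962 and 0.137) and without NDLN replicate 1 (0.113, 0.099 and 0.142). The Zeb2 and Il2rb calls also ended without tumor replicate 1 (0.054 and 0.0646) or 2 (0.0574 and 0.0791), and the Klrg1 call without tumor replicate 2 (0.0813) or 4 (0.0855). Among distal peaks alone the 3 calls held (adjusted p = 0.00519, 0.00688 and 0.0293).

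The lower effector regions lay near 7 genes. A region inside Il12rb2, whose product senses interleukin 12, stood at 0 in the 3 tumor libraries and 0.818 and 0.773 in node (chr6:67317830-67318330, difference -0.795, SE 0.0447, adjusted p = 1.53e-06). The deposited fold ratio there was 5.69, 6.21 and 4.81 in the long tumor lists, 20.5 and 17.8 in the long node lists and 7.25 in the short NDLN list. A region inside Klrd1, the gene of the natural killer receptor chain CD94, stood at 0 against 0.778 and 0.71 (adjusted p = 7.27e-05). Eomes, a factor of effector and memory cells, had 1 of 6 regions lower (0 against 0.388 and 0.196; adjusted p = 0.000452). Regions of Tbx21 (adjusted p = 0.866) and Id2 (0.541), which encode further effector factors, did not pass.

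Among sites near tissue residency genes lower calls outnumbered higher ones, as they did over all regions. Of 92 regions near 15 of these genes, 16 (17.4%) ranked lower and 3 (3.26%) higher, against 11.2% and 7.18% of all regions. When each DN library was left out, 10 (without DLN replicate 1) to 14 were lower. With all peaks ranked together 16 of 74 distal regions of the list were lower, against 17% of all distal regions. Among distal peaks alone 7 of 71 were lower, against 11% of all distal regions. Cd69 encodes the receptor that blocks S1PR1 and keeps cells in tissue, and 6 of its 9 regions ranked lower in tumor. The region with the smallest p, 32.7 kb from the gene, stood at 0 in tumor and 0.303 and 0.551 in node (adjusted p = 0.000331; 0.064 with the strongest 10000 peaks). Rgs1, a brake on chemokine receptor signalling that marks resident cells, had 2 of 9 regions lower (0 against 0.468 and 0.678; adjusted p = 0.000105). Regions near Rgs16, of the same family (0.917, 0.909 and 0.846 against 0.598 and 0.541; adjusted p = 0.000439), and Bhlhe40, a factor of mitochondrial fitness in resident cells (0.653, 0.832 and 0.755 against 0.319 and 0.137; adjusted p = 0.0031), were higher. The Bhlhe40 call ended among gene-end peaks alone (0.121). The region of Itgae, the gene of CD103, did not pass (0.0883, 0.316 and 0.596 against 0 and 0.0363; adjusted p = 0.138, and 0.041 without tumor replicate 1).

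Among chemokines and cytokines 3 of 53 regions (5.66%) ranked higher and 3 lower, against 7.18% and 11.2% of all regions. Ranked only among distal peaks, 9 of 47 were higher and 2 lower, against 6.03% and 11% of all distal regions. The higher ones lay near Il10 and Ccl1, a chemokine gene (adjusted p = 0.025; 0.174 without DLN replicate 1, 0.0844 and 0.0791 without tumor replicates 1 and 2), and the higher count was 0 without DLN replicate 1 and 1 without NDLN replicate 1 or tumor replicate 1 or 2. The lower ones lay near Il2, the T cell growth factor gene, with 0 in tumor and 0.483 and 0.509 in node (adjusted p = 1.81e-06), and Il21, which encodes a cytokine of helper cells (0.213, 0.23 and 0 against 0.828 and 0.755; adjusted p = 0.00306). Of 9 regions of inflammatory chemokine receptors 1 was lower, the promoter of Ccr4 (0 against 0.146 and 0.138; adjusted p = 0.0386), a call that ended without any 1 of the 5 DN libraries (0.0812 to 0.141) and among distal peaks alone (0.585). Of 30 interferon response regions 2 were lower, at Gbp4 (adjusted p = 0.000533) and Isg20 (0.0478, and 0.0558 to 0.219 without each DN library), and 0 were higher, with 3 higher in the DN libraries alone.

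Cell cycle genes had 5 of 48 regions (10.4%) higher and 3 (6.25%) lower, against 7.18% and 11.2% of all regions. Without tumor replicate 4 the higher count was 3, and with all peaks ranked both counts were 0. The promoter of Cdk4, the kinase that starts the cycle with D cyclins, stood at 0.767, 0.811 and 0.889 in tumor and 0.259 and 0.182 in node (difference 0.601, SE 0.1, adjusted p = 0.000988). It stayed higher among gene-end peaks alone (0.515, adjusted p = 0.0279) and ended under ranking by fold ratio (0.0981), where the deposited ratios were 11.5, 13.6 and 12.8 in tumor and 9.79 and 8.54 in node. E2f1, a driver of S phase genes (adjusted p = 0.00306), and Ccnd3, the gene of cyclin D3 (adjusted p = 0.0113; 0.104 without DLN replicate 1), were higher at a region next to the gene and at a start site. Regions near Ccne1, the cyclin E gene (0, 0.0588 and 0 against 0.774 and 0.704; adjusted p = 6.83e-05), and inside Cdk6 (adjusted p = 0.00015) were lower.

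Of 54 regions of hypoxia, glycolysis and nutrient transport, 5 (9.26%) ranked higher and 9 (16.7%) lower, against 7.18% and 11.2% of all regions. The higher count was 2 without NDLN replicate 1 or tumor replicate 1 and 3 without DLN replicate 1 or tumor replicate 2. Among distal peaks alone 3 of 39 distal regions were lower, against 7 before and 11% of all distal regions. A region of Slc3a2, the heavy chain shared by several amino acid transporters, stood at 0.826, 0.808 and 0.903 in tumor and 0.396 and 0.328 in node (adjusted p = 6.79e-05). The glucose transporter genes differed. A start site of Slc2a1 was higher (0.845, 0.826 and 0.81 against 0.717 and 0.426; adjusted p = 0.0194), but the call ended without NDLN replicate 1 (0.0967) or tumor replicate 1 (0.0556) and among gene-end peaks alone (0.176). Slc2a3 had 2 of 9 regions higher and 3 lower, within 1 locus: a region 2.26 kb from the gene stood at 0.308, 0.304 and 0.234 against 0 and 0 (adjusted p = 0.00749), and one inside it at 0.0035, 0 and 0 against 0.504 and 0.405 (adjusted p = 0.000826). Regions inside Epas1, the gene of the hypoxia factor HIF-2 alpha, and Pfkfb3, a glycolytic regulator, were lower (adjusted p = 2.06e-06 and 2.2e-05).

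The lists kept the mark of CD8 T cells in both tissues. Each of the 20 T cell identity genes had a kept peak nearby in at least 1 of the 5 libraries, with 18 to 19 genes per tumor library and 15 to 17 per node library and summed rank values of 16.9 to 22.2 and 22.3 to 22.8. Of its 111 regions 11 (9.91%) ranked lower, among them regions near Cd28 (5), Ets1 (3) and Runx1 (2), and 1 ranked higher, at Cd3d. The shares over all regions were 11.2% lower and 7.18% higher. The region of Cd28, the costimulatory receptor gene, stood at 0 against 0.324 and 0.647 (adjusted p = 0.00029) and that of Ets1, a lymphoid factor, at 0 against 0.534 and 0.583 (adjusted p = 4.12e-05). The Cd3d call (adjusted p = 0.0179) ended without DLN replicate 1 (0.0631), NDLN replicate 1 (0.106) or tumor replicate 2 (0.0521) and among gene-end peaks alone (0.231), and without tumor replicate 4 the list had 3 higher regions. The region near Cd8a, the coreceptor gene, was kept in all 5 libraries (0.155, 0.562 and 0.0659 against 0.663 and 0.712; adjusted p = 0.0843, and 0.0197 without tumor replicate 2), and that of Cd3e did not pass (adjusted p = 0.819).

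Most markers of other cells had no kept peak. Of 12 B cell genes 8 had no kept peak in the 5 libraries, among them Cd79a, Ms4a1 and Pax5, while Blk, Cd22, Cd74 and Cr2 had one. The summed rank values were 0.2 to 0.889 in tumor and 0.554 to 0.811 in node, with 0 of 8 regions called. Of 15 myeloid genes 11 had none, among them Csf1r, Lyz2, Adgre1 and Spi1, while Cebpb, Clec9a, Flt3 and Itgam had one (sums 1.17 to 1.95 and 0.574 to 1.38). There 1 of 11 regions was called, lower, inside Flt3. Of 12 melanoma genes 10 had none, among them Mlana, Tyr, Dct and Sox10, while Pmel and Mitf had one (2.41 to 3.04 and 2.83 to 3.12). Per region these sums were larger than those of the T cell identity list, in tumor and in node. Of the 7 regions 1 was called, lower, near Mitf. Of 12 genes of stroma and endothelium 10 had none, while Pecam1 and Pdgfra had one (0.143 to 0.643 and 0.0203 to 0.977), with 0 of 7 regions called.

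2 lists of related lymphocytes had lower summed rank values in tumor, and their part in the other results was not tested. The CD4 and Treg list summed to 3.51 to 3.85 in tumor and 4.73 to 6.5 in node, with 5 of 27 regions (18.5%, against 11.2% of all regions) lower and 0 higher, near Cd4, Cd40lg (2), Cxcr5 and Ikzf2, while Foxp3 and Ccr6 had no kept peak. Without tumor replicate 4, 3 were lower, and among distal peaks alone 3 of 19 distal regions were, against 11% of all distal regions. The region inside Cd4 stood at 0 in tumor and 0.453 and 0.478 in node (adjusted p = 0.000209). The NK and innate list summed to 3.53 to 3.66 in tumor and 6.1 to 6.46 in node, with 6 of 23 regions (26.1%) lower, near Cd226 (4) and Klre1 (2), and 1 higher, near Klrb1c (adjusted p = 0.0193; 0.0972 and 0.0999 without either node library). Among distal peaks alone 3 of 20 distal regions of this list were lower, against 11% of all distal regions. The Klre1 region with the smallest p did not pass there (0.1). Ncr1, Fcgr3 and Zbtb16 had no kept peak. Housekeeping genes had 3 of 23 regions (13%, against 7.18% of all regions) higher, at Ppia, Actb and Polr2a, and 2 (8.7%) lower, at B2m and Sdha. Without DLN replicate 1 or NDLN replicate 1 the counts were 1 and 1. The lower count was also 1 without tumor replicate 1, 2 or 4. The calls of Ppia (0.124), Polr2a (0.218) and Sdha (0.185) ended when peaks were ranked within their class.

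Apart from Il12rb2, the regions with the smallest p lay outside these lists. Sde2, a gene of the response to stalled replication, had the promoter shown above at 0.911, 0.876 and 0.925 in tumor and 0.0335 and 0.122 in node (difference 0.826, SE 0.0511, adjusted p = 1.53e-06). The deposited fold ratios were 16.3, 18.2 and 16.3 in the long tumor lists, 6.57 in the short one and 8.3 and 8.42 in node, so the site had a peak in each tumor library and was stronger there in the long lists. A region 53.1 kb from Slc17a6, a glutamate transporter gene, stood at 0.714, 0.727 and 0.745 against 0 and 0 (adjusted p = 3.84e-06). Regions next to the start sites of Strada and Dnajb4 and next to Brf1, and a region 13.8 kb from Gtsf1l, completed the 6 higher regions with the smallest p (adjusted p = 7.21e-06, 4.7e-06, 8.24e-06 and 8.48e-06). Apart from Il12rb2, the lower regions with the smallest p lay near Ubac2, Prag1, Gabrb1, Dock9 and Nck2, each at 0 in the 3 tumor libraries and between 0.679 and 0.827 in node (adjusted p = 1.53e-06 each). Among them Gabrb1 had no deposited peak in any tumor list and fold ratios of 19.8 and 21.1 in the long and 7.61 in the short node list. Where such a lower region met the library filter through node DN alone, the group where it is high, its p gives no independent support.

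Some genes held clusters of lower regions. Wwox had 11 of 20 lower, Trio 10 of 14, Prkcq 9 of 17, Btg1 9 of 13 and Ubac2 8 of 17, and Trio and Btg1 also had 1 higher each. Prkcq encodes the kinase PKC-theta of the T cell receptor synapse, and its region with the smallest p stood at 0 against 0.475 and 0.71 (adjusted p = 1.27e-05). Btg1 encodes an antiproliferative factor of resting T cells (0 against 0.412 and 0.236; adjusted p = 0.000142). The largest numbers of higher regions were 3, near Lrrk1, Yy1, Itpkb, Mast3 and Mnt, and the call of the Itpkb region with the smallest p ended among gene-end peaks alone (0.114). A region 34.9 kb from Yy1, the gene of a looping factor, stood at 0.965, 0.948 and 0.949 against 0.761 and 0.741 (adjusted p = 0.000302). A region inside Lrrk1 (adjusted p = 0.0275) lost its call without DLN replicate 1 (0.123), NDLN replicate 1 (0.128) or tumor replicate 1 (0.0669) or 2 (0.0928).

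The tissue difference of DN cells was set against that of the sorted subsets named TDT_SP and LAG3_SP. The labels of these libraries describe tdTomato-positive cells and disagree on LAG3, so no LAG3 state is assumed. The difference was tested as an interaction, and the contrasts share no library. The tissue effect was larger toward tumor in DN than in TDT_SP at 181 regions (0.787%) and larger toward node at 835 (3.63%). Against LAG3_SP the counts were 507 (2.2%) and 1452 (6.31%). With distal peaks ranked among themselves they were 181 and 542 against TDT_SP and 311 and 861 against LAG3_SP. With gene-end peaks alone they were 5 and 54 against TDT_SP and 16 and 127 against LAG3_SP. Both subsets had 3 long lists from tumor and 2 from node. The NDLN list of LAG3_SP was the shortest of the fit (14244 peaks). Its kept peaks had a median width of 166 bp and a median fold ratio of 6.51. The DLN list of LAG3_SP had 498 bp and 12.2, and the long node DN lists 470 and 460 bp and 13.2 and 12.1. The part of this list in the comparisons with LAG3_SP was not tested.

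The regions called in DN were read in the same tests. Of the 2576 regions lower in tumor DN, 808 were lower by more than in TDT_SP and 1158 by more than in LAG3_SP. Of the 1652 higher regions, 64 and 373 were higher by more. The DN contrast that chose these regions is part of both tests, so these counts are raised by choice. Of the lower regions, 639 were also called lower in TDT_SP (5.48% of all regions were) and 116 in LAG3_SP (1.4% of all). Of the higher regions, 491 were also called higher in TDT_SP (4.35% of all) and 40 in LAG3_SP (2.4% of all). Since the DN contrast chose these regions, their median differences of 0.451 (higher) and -0.413 (lower) in DN are larger by choice. The same regions had medians of 0.244 and -0.105 in TDT_SP and 0.0607 and -0.0197 in LAG3_SP.

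**Figure D4:**
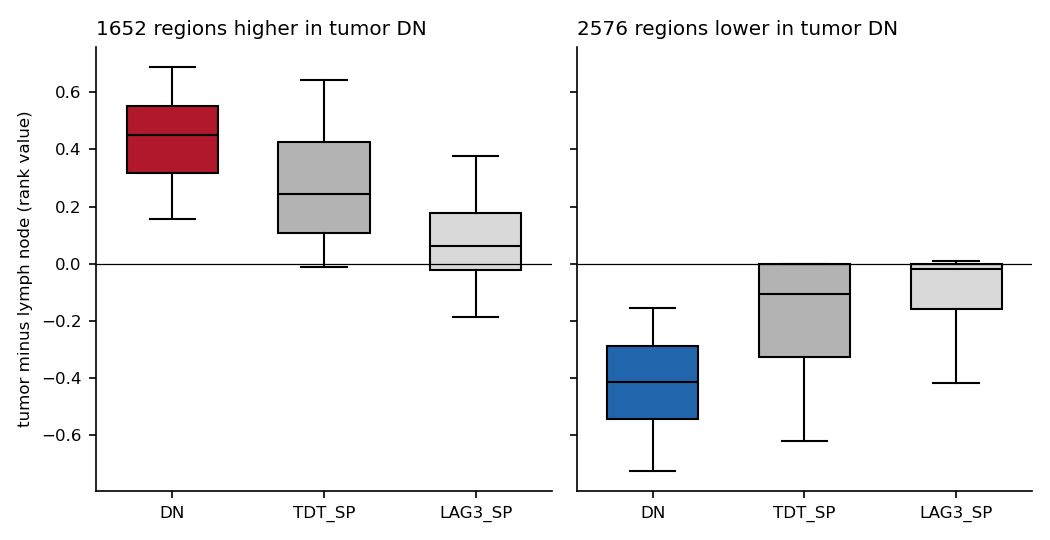
Tumor minus node difference in rank value in DN, TDT_SP and LAG3_SP at the 1652 regions higher (left) and the 2576 regions lower (right) in tumor DN; boxes span the quartiles with the median as a line and whiskers run from the 5th to the 95th percentile. The regions were chosen by the DN contrast, whose medians are 0.451 and -0.413, and the medians of the other subsets lie closer to 0.

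Some sites of the naive and memory list and of the cytotoxic effector list had a tissue difference in DN that differed from those of both other subsets. At the Bach2 site neither TDT_SP nor LAG3_SP kept a peak in tumor or node, and the tissue effect of DN differed from both (adjusted p = 0.000142 and 0.000138). At the Lef1 site the means were 0 and 0 in TDT_SP and 0 and 0.0231 in LAG3_SP, tumor first (adjusted p = 0.000166 and 0.000207). Tumor DN was at 0 as well, so the standard error is small there for the same reason. The Ccr7 site and, from the effector list, the Eomes and Il12rb2 sites also differed from both subsets (0.0119 and 0.00893, 0.015 and 0.0126, and 0.00011 and 9.72e-05). At Ccr7 the difference from either subset (-0.158) equaled the difference within DN, and at Eomes and Il12rb2 it came close. At Prag1, Gabrb1 and Dock9, among the lower regions with the smallest p, the difference within DN was -0.761, -0.795 and -0.712. The difference from TDT_SP was -0.76, -0.795 and -0.712 there, and that from LAG3_SP -0.761, -0.795 and -0.712. Sites with hardly a kept peak outside node DN pass the filter of 2 libraries through that group. The p-values of these sites, Bach2 and Lef1 included, thus give no independent support. With a peak required in at least 4 libraries, the regions called against TDT_SP were 21 and 101, and against LAG3_SP 297 and 520. Il7r, Foxp1, Cd69, Rgs1 and Tox differed from LAG3_SP (adjusted p = 0.00286, 0.00198, 0.00867, 0.00371 and 0.00402) and did not pass against TDT_SP (0.566, 0.0613, 0.679, 0.185 and 0.833). At the Tox site the node mean was 0.901 in DN, 0.748 in TDT_SP and 0.137 in LAG3_SP, and the tumor means were near 0 in each. The Nr4a1 site was higher in tumor DN by more than in LAG3_SP (adjusted p = 0.00613), where the mean was 0.716 in tumor and 0.836 in node. The Gzmb and Ifng sites did not pass against either subset (0.797 and 0.434, 0.976 and 0.915).

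The short lists served as a check, since no value of theirs entered the calls. Tumor replicate 3, with 4603 peaks, had a peak at 53% of the regions called higher in tumor, at 1.48% of those called lower and at 18.5% of all regions. The long tumor lists cut to the same number had 52.1% to 63.8% and 0.699% to 1.16%, and the long node lists 10.5% to 11% and 25.5% to 25.7%. At distal regions alone tumor replicate 3 had a peak at 37.2% of the higher and 1.14% of the lower regions, against 6.33% of all. It thus sat with the tumor libraries at both sets of regions.

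NDLN replicate 2, with 6613 peaks, sat less clearly with its tissue at the called regions, which the long node lists helped to choose. It had a peak at 26.2% of the regions called higher in tumor, 29.8% of those called lower and 25.7% of all. The long node lists cut to 6612 peaks had 19.9% to 21.7% and 43.4%, and the long tumor lists 74.8% to 82.9% and 1.79% to 3.03%. At distal regions NDLN replicate 2 had a peak at 13.7% of the higher and 30% of the lower regions, against 17.8% of all. DLN replicate 2, with 301 peaks, had a peak at 0.242% of the higher and 0.272% of the lower regions, too few to place it.

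**Figure D5:**
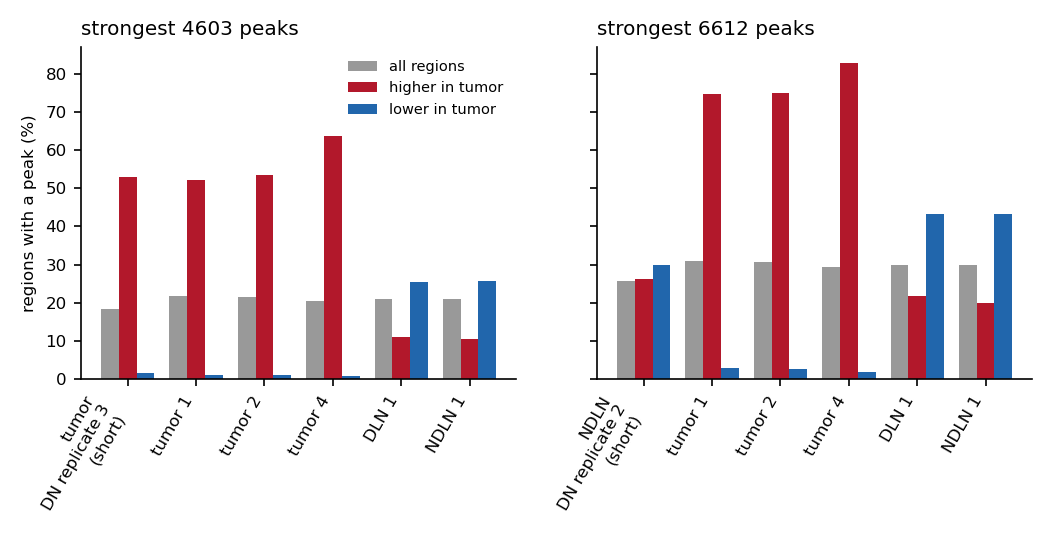
Percentage of all regions, of regions higher in tumor DN and of regions lower in tumor DN that carry a peak in tumor DN replicate 3 (left) and NDLN DN replicate 2 (right), beside the long DN lists cut to the same number of peaks. The short tumor list resembles the cut tumor lists, and the short NDLN list shows a smaller contrast between the sets (26.2% of higher and 29.8% of lower regions) than the cut node lists.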

How the data were processed

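Peak lists of sorted CD8 T cell libraries came from the deposited files. Reads were aligned with BWA to GRCm38 (mm10) and peaks called with MACS2, per the submitters' processing notes, with versions and settings not given in the sources used here. In the deposited lists a peak carries the authors' fold ratio over background, -log10 p, -log10 q and a score, and the depth behind a peak is unknown.

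Within each library, the peaks of the autosomes and X were ordered by -log10 p and the strongest 14000 kept, from the 15 lists of 10000 or more peaks of the DN, TDT_SP and LAG3_SP groups. Regions of 501 bp around summits, overlapped by at least 1 bp of a peak in at least 2 libraries, were fitted with limma 3.58.1 (R 4.3.3; lmFit, eBayes with a trend) on group means, so that DN shares its estimate of spread with the other groups. Calls use a Benjamini-Hochberg adjusted p under 0.05 over 22997 regions. Regions belong to the nearest protein-coding gene of RefSeq within 100 kb, which does not show regulation. The limma step was tested on simulated data.

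The 19 gene lists (273 genes, 271 in the table), the members and the tests were chosen with earlier results of these data known. Named genes were a fixed list, up to 3 genes per list and direction with the smallest p, the genes with the most calls, and the regions with the smallest p. The fit of the DN libraries alone kept the strongest 19000 peaks. Alternatives changed the number of peaks, the ranking, the overlap, the filter, the libraries and the model; p-values measure only the spread between these libraries. Python 3.11.15 was used for the rest. Some genes of the lists are counted but not reported here by name.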

Additional observations from a re-analysis of the deposited data

Results flagged for a closer look

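The tissue difference of DN cells (tumor minus node) differed from that of another subset, by the test of the difference itself, at the counts of regions and at the named regions that follow. Positive values mean that tumor minus node was larger in DN. Where the other subset kept no peak, as at Bach2, the value is that of DN itself. No cause was weighed.

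Against TDT_SP, 181 regions were larger and 835 smaller in DN. Among named genes the difference was -0.6 at Bach2, 0.199 at the higher S1pr1 region, -0.158 at Ccr7, -0.491 at Lef1 and -0.292 at Eomes. The lower regions with the smallest p gave -0.792 at Il12rb2, -0.76 at Prag1, -0.795 at Gabrb1 and -0.712 at Dock9. Regions near Bicdl1 (0.446), Rasl11a (0.407) and Csrnp3 (0.488) and a further region inside Foxp1 (0.582) had no kept peak in any DN library, so the difference there comes from peaks of node TDT_SP.

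Against LAG3_SP, 507 regions were larger and 1452 smaller in DN. The values were -0.6 at Bach2, 0.196 at S1pr1, -0.158 at Ccr7, -0.468 at Lef1, -0.484 at Il7r, -0.378 at Foxp1, -0.764 at Tox and -0.286 at Eomes. They were -0.427 at Cd69, -0.569 at Rgs1 and 0.533 at Nr4a1. At Cd38 (-0.786) no DN library kept a peak, and at Id2 (-0.696) the tumor mean was 0.144 in DN and 0.84 in LAG3_SP. Among the regions with the smallest p the values were -0.795 at Il12rb2, 0.794 at Sde2, 0.275 at Dnajb4, -0.761 at Prag1, -0.795 at Gabrb1 and -0.712 at Dock9. Regions near Siah3 (0.463) and Kif3b (0.503) had no kept peak in any DN library.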

How the results depend on the processing

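Counts are given as higher then lower. No alternative reversed a called difference at a named region. Of the called named regions that could be measured, 9 of 33 higher and 13 of 54 lower remained called with all peaks ranked, 15 of 33 and 41 of 45 when ranked by fold ratio, and 20 of 20 and 43 of 50 among distal peaks alone. With a peak required in at least 4 libraries, 33 of 33 higher and 23 of 25 lower ones remained called. The rest of the 54 lower ones could not be measured there. Tumor and node lists share only replicate number 1, so the numbers were not checked for pairing. With the replicate block the tissue counts were 715 and 1549, those of the difference from TDT_SP 66 and 445 and from LAG3_SP 236 and 899, and the listed genes 19 and 65 (31 and 118 without it), and 22 of the 33 higher and 45 of the 54 lower named calls held.

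Leaving out each DN library in turn gave 845 to 1258 higher and 2123 to 2393 lower regions, 126 to 285 and 694 to 1400 for the difference from TDT_SP, 312 to 470 and 1117 to 1828 for LAG3_SP, and 16 to 31 and 94 to 101 for the listed genes. A left-out node library leaves 1 in its group, assumed to vary like the rest. The gene-end difference ran from 5.72 to 7.48 percentage points and the Jaccard difference from 0.16 to 0.196, with p-values that such small sets cannot bring under 0.05.

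With the strongest 10000 peaks the listed genes had 19 higher. With the strongest 4000 and the short lists the counts were 416 and 783, 41 and 111 for TDT_SP, 51 and 214 for LAG3_SP, and 8 and 32 for the listed genes, while the gene-end difference was 17.7 points and the Jaccard difference 0.197, both at an exact permutation p = 0.02857. With all peaks there were 247 higher tissue calls, 95 and 17 for the 2 subset differences, and 7 and 16 for the listed genes. Ranking by fold ratio gave 815 higher, 177 for LAG3_SP, and 10 and 76 for the listed genes. Peaks that cover 50% of a region gave 537 higher, 102 for LAG3_SP and 13 for the listed genes. Presence or absence gave 909 and 1489, 329 for TDT_SP and 59 lower for the listed genes. The DN libraries alone, with the strongest 19000 peaks kept as well, gave 2860 higher and 74 for the listed genes. A peak in at least 4 libraries gave 1625 lower, 21 and 101 for TDT_SP, and 297 and 520 for LAG3_SP. Ranking within a class, added after seeing the data, gave 819 and 1499 distal regions (395 and 2365) and 284 and 461 gene-end regions (1257 and 211). The causes of these shifts were not tested.

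Rank values carry no depth, a site at 0 in nearly all libraries gets a small standard error, and 5 libraries carry the tissue contrast.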
